A study of Mus musculus with 28 samples.

Results

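The data describe where H3K9me2 domains lay in 2-cell-like cells (2CLCs) with and without EHMT2. A domain is a stretch of chromosome that was called as enriched for dimethylation of lysine 9 of histone H3. The deposited 2CLC DMSO set and the 2CLC dTAG set were compared on chromosomes 1 to 19, which hold 3870 of the 4248 DMSO domains and 8281 of the 8822 dTAG domains. A DMSO domain was called lost when it shared no base with a dTAG domain. It was called intact when it shared bases with a single dTAG domain that covered at least 90% of it, trimmed when that domain covered less, and split when it shared bases with 2 or more dTAG domains. A dTAG domain that shared no base with a DMSO domain was called new, and every other dTAG domain was called retained.

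The cells were BL6/129 hybrid mouse embryonic stem cells (mESCs) of the line EHMT2-dTAG-mcherry MERV-GFP, grown in FBS/LIF. Per the study's methods the cultures came from a single clone. Each condition carries the degron-tagged EHMT2 and the GFP reporter, the controls included. Cells were kept for 72 h in DMSO or in dTAG-13, a degrader of the tagged protein, and GFP-positive cells were sorted as 2CLCs. TTNBP, an agonist of retinoic acid receptors, was also given, per the labels in 2 replicates that are not named, whereas the study's methods mention it for the sorted cells without excepting any replicate. Each of the 2CLC conditions has 3 immunoprecipitation and 3 input libraries, 12 of the 28 samples of the series, and for each condition the authors deposited 1 list of positions. There is no value per replicate and no score per domain, so no difference below could be set against the spread between cultures and none was tested. The Wilson 95% intervals count domains or gene starts, cover counting error along the genome only, and do not stand for replicate cultures. The depth behind the domains is unknown. The name 2CLC rests on the GFP sort, because positions hold no expression by which marker genes could be checked.

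EHMT2 (also known as G9a) works with its partner EHMT1 as a histone methyltransferase that places H3K9me2, a mark of repressed euchromatin. H3K9me2 spreads over wide blocks that often hold silent, tissue-restricted genes and repeats. 2CLCs are a rare state of mESC cultures in which genes of the 2-cell embryo are switched on, among them the Zscan4 and Obox clusters and genes driven by the endogenous retrovirus MERVL. The transcription factor DUX is a known activator of this program.

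To show the DNA at the loci to which the results return, the 250 bases before the annotated start are given for 3 genes whose start left the domains (Duxf3, Sp110 and Sox11), 3 whose start entered them (Zfp42, Rex2 and Hist1h4m) and 2 whose start was in a domain in both sets (Zscan4c and Tdpoz1). They are read 5′ to 3′ on the strand of the gene from the RefSeq assembly GRCm38.p6, whose coordinates are those of mm10, and capitals mark each CpG. The stretches are chr10:58232676-58232925 on the minus strand for Duxf3, chr1:85598818-85599067 on the minus strand for Sp110, chr12:27342575-27342824 on the minus strand for Sox11 and chr8:43306981-43307230 on the minus strand for Zfp42. The others are chr4:147021600-147021849 on the plus strand for Rex2, chr13:21811496-21811745 on the plus strand for Hist1h4m, chr7:11005495-11005744 on the plus strand for Zscan4c and chr3:93676311-93676560 on the minus strand for Tdpoz1.
Duxf3: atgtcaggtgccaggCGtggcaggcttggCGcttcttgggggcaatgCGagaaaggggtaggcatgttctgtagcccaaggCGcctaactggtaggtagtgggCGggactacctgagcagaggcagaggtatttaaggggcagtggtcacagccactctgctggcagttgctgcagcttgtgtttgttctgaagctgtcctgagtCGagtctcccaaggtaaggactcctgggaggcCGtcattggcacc
Sp110: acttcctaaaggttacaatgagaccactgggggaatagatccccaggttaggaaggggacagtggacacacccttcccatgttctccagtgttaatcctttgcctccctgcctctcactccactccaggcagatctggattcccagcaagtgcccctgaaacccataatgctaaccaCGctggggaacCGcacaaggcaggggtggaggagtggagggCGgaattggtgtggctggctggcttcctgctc
Sox11: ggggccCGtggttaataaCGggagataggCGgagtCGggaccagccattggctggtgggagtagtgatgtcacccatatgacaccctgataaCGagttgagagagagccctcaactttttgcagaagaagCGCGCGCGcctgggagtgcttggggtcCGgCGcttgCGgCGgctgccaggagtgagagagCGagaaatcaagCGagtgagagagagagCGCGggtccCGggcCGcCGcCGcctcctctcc
Zfp42: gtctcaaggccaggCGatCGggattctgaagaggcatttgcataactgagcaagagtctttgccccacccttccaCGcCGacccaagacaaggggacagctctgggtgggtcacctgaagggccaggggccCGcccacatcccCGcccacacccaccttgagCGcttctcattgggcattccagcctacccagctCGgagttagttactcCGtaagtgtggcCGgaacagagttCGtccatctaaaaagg
Rex2: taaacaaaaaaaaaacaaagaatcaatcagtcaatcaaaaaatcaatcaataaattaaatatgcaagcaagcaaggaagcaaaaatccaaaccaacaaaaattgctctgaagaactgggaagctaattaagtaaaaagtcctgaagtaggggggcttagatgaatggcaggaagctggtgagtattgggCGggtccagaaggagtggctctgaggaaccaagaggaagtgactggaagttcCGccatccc
Hist1h4m: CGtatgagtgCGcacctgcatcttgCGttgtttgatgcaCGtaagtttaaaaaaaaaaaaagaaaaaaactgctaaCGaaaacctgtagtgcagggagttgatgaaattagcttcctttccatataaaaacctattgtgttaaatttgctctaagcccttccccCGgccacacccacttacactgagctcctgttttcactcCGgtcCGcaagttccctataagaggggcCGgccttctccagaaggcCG
Zscan4c: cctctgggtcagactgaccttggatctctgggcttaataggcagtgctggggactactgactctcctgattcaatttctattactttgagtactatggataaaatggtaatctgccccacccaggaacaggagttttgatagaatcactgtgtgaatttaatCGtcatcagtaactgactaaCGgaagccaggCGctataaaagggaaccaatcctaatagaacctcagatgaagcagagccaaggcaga
Tdpoz1: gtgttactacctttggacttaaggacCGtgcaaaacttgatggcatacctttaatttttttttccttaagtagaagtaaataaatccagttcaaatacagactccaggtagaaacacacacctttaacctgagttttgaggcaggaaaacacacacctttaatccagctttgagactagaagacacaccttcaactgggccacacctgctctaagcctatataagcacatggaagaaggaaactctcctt
Sox11 had the most CpGs of the 8, with 21, followed by Zfp42 with 11 and Hist1h4m with 10. Duxf3 had 7, Sp110 and Zscan4c had 3 each, Rex2 had 2 and Tdpoz1 had 1. The genes that left and the genes that entered each include a stretch rich in CpG and a stretch poor in it.

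To ask what became of each DMSO domain, the sets were laid over each other. Splitting was the most common outcome. Of 3870 DMSO domains, 1360 (35.1%, Wilson 95% interval 33.7% to 36.7%) were split, 1031 (26.6%, 25.3% to 28.1%) were intact, 1028 (26.6%, 25.2% to 28.0%) were trimmed and 451 (11.7%, 10.7% to 12.7%) were lost. Over the 19 chromosomes the share lost ran from 6.60% on chromosome 5 to 25% on chromosome 19, and the share intact from 18.0% on chromosome 19 to 39.1% on chromosome 5. The split domains were wide, with a median of 360 kb, and held 72.8% of the DMSO domain bases. The lost ones had a median width of 55 kb and held 2.86% of the bases, trimmed domains had a median of 90 kb and intact domains one of 65 kb. The order of the classes depends on the narrow gaps, since with gaps of up to 10 kb bridged in each set 31.4% of the domains were intact and 28.9% split. The share lost was 21.0% among domains of at least 50 kb set against each other, and 25.7% when sharing under 50% of the bases counted as none.

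The class of a DMSO domain went with its width. Of 448 DMSO domains of up to 30 kb, 58.0% were intact and 23.4% were lost. Of 835 domains over 100 and up to 200 kb, 38.3% were trimmed, 32.3% were split and 9.22% were lost. Of 278 domains over 1000 kb, 242 were split, 36 were intact and 0 were lost or trimmed. A wide domain has more places to be cut and more bases that can be shared, so the order of the classes along the width follows in part from their definitions. The share of bases that stayed in a dTAG domain was lowest in the middle widths, with 62.1% for domains over 100 and up to 200 kb, against 71.3% for those of up to 30 kb and 93.2% for those over 1000 kb.

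**Figure D1:**
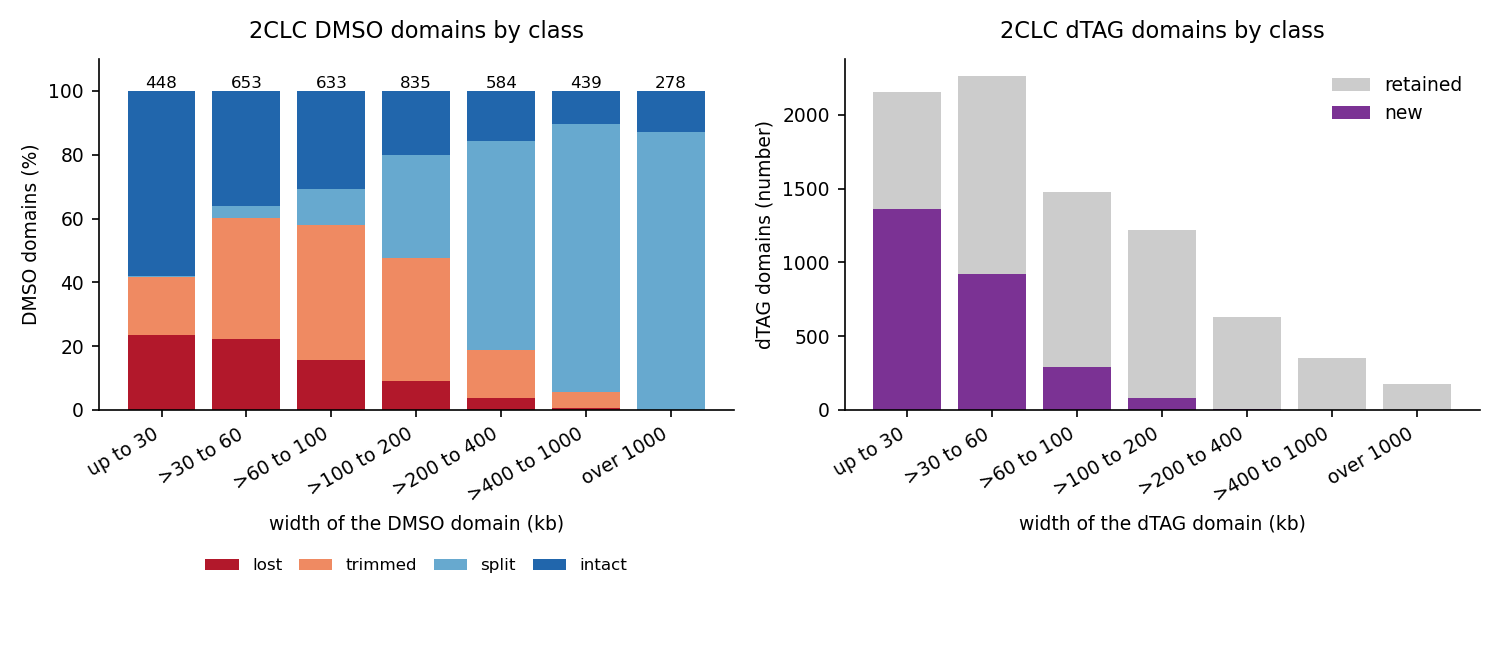
Left, stacked bars give the percent of 2CLC DMSO domains that were lost, trimmed, split or intact in each width class, with the number of domains above each bar. Right, bars give the number of 2CLC dTAG domains in each width class, with new domains in purple and retained domains in grey. Split domains make up 0.223% of the narrowest class and 87.1% of the widest, and new domains make up 63.2% of the narrowest dTAG domains.

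Most split domains were cut in few places, and the widest gap of a split domain had a median of 15 kb. Of the 1360, 723 (53.2%) held 2 dTAG domains, 281 held 3 and a single domain held 17. The 2833 gaps between the pieces had a median width of 10 kb, and 1297 of them (45.8%) were 5 kb wide, a single step of the grid on which domains were called. In 623 split domains (45.8%) no gap was wider than 10 kb, while in 141 (10.37%) the widest gap exceeded 100 kb. Split domains kept 85.3% of their bases in dTAG, trimmed domains 51.7% and intact domains 98.9%.

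At the ends of the domains, boundaries moved inward and outward. In trimmed domains 399 of 1028 (38.8%) receded at both ends and 629 at a single end, and the median step of a receding end was 25 kb. Of intact domains, 867 of 1031 (84.1%) were passed by their dTAG domain at one end or the other, by a median of 25 kb. So were 882 of 1360 split domains (64.85%), by a median of 50 kb, and 409 of 1028 trimmed domains (39.8%), by 20 kb. The classes are defined by coverage, so the order of these shares follows in part from the definitions. The positions of 10.7% of the ends of trimmed domains, 13.8% of the ends of split domains and 28.95% of the ends of intact domains were the same in the sets. Of 5623 retained dTAG domains, 3840 (68.3%) lay wholly inside a DMSO domain, 1229 also held bases outside it and 554 (9.85%) joined 2 or more DMSO domains.

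In bases, 1001 Mb were in domains of both sets, 224 Mb in DMSO domains only and 149 Mb in dTAG domains only. Gaps inside split domains made up 34.1% of the bases that left, trimmed ends 25%, the outer ends of split domains 24.3%, lost domains 15.6% and the ends of intact domains 0.905%. Of the bases that entered, 71.8% were in new domains, 21.8% in extensions of domains that existed in DMSO and 6.39% in bridges between neighbouring DMSO domains.

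The dTAG set contained 2658 new domains, 32.1% (31.1% to 33.1%) of its domains. Because domains mark rank within a set, a new domain or an entering gene start is not a measured gain of H3K9me2. For the same reason a domain or start that stayed is not a measured constancy of the mark. They were narrow, with a median of 30 kb and quartiles of 20 and 50 kb, and a single new domain was wider than 400 kb. The share ran from 22.0% of dTAG domains on chromosome 15 to 44.4% on chromosome 5. With domains under 50 kb left out of each set, 17.1% were new. Few new domains were satellites of older domains. The median distance to the nearest DMSO domain was 210 kb, 1750 (65.8%) lay more than 100 kb away and 209 (7.86%) lay within 10 kb.

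To ask what the changed stretches hold, their sequence was compared with the bases that stayed. Repeats marked the bases that stayed in domains. In the shared bases 42.5% of the sequence was soft-masked, the lower-case marking of interspersed and simple repeats in the assembly. In lost domains this was 26.5%, in trimmed ends 26.3%, in split ends 26.6% and in split gaps 28.3%, close to the 25.7% in the bases of neither set. Intact domains were the richest class of DMSO domains in repeats, with 47.5%, against 39.5% in split, 33.3% in trimmed and 26.5% in lost domains. New domains stood between, with 37.7%.

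The stretches that left and those that entered also differed in GC content and in gene density. G and C made up 38.9% of the shared bases, 41.3% of lost domains, 43.6% of new domains and 45.0% of the bases of neither set. The density of protein-coding starts was 3.74 per Mb in the shared bases, 2.63 in lost domains and 3.98 in split gaps. New domains held 9.65 per Mb, extensions 12.7 and bridges 11.6, which lies nearer to the 13.5 per Mb of neither set. Sequences repeated on their own chromosome, measured as 50-mers that occur more than once on the same strand, made up 19.07% of intact domains, 12.5% of the shared bases, 11.8% of new domains, 4.83% of lost domains and 2.77% of the bases of neither set. Reads that match several places were kept in the authors' alignment, and the part of repeated sequence in these differences was not tested.

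**Figure D2:**
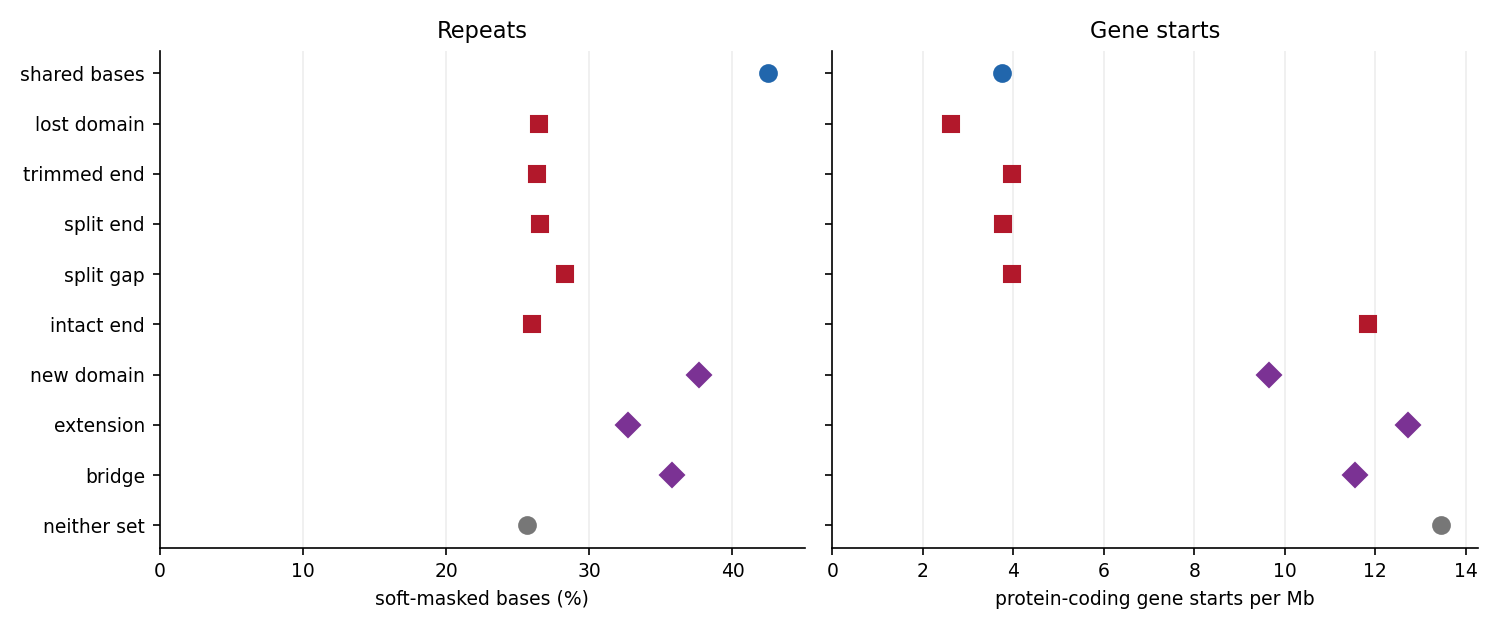
Points give, for each kind of stretch, the percent of bases that are soft-masked (left) and the protein-coding gene starts per Mb (right), with shared bases in blue, stretches that left domains in red, stretches that entered in purple and bases of neither set in grey. The 5 kinds that left lie between 26.0% and 28.3% soft-masked, below the shared bases at 42.5%, and the 3 kinds that entered lie at 32.7% or more.

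Gene starts were then placed on the maps. GENCODE M21 lists 20807 protein-coding genes on chromosomes 1 to 19. Although the dTAG domains covered fewer bases, they held more gene starts, 5302 (25.5%, 24.9% to 26.1%) against 4593 (22.1%, 21.5% to 22.6%) in DMSO. Of the 4593 starts in DMSO domains, 847 left, a background of 18.4%, and 3746 stayed. Of the 16214 starts outside DMSO domains, 1556 entered, a background of 9.6%. The counts of the gene groups below are read against these backgrounds. Olfactory and vomeronasal receptor genes made up 1009 and 326 of the 4593 starts in DMSO domains, and 5.75% and 0.613% of these left. Counted over any base of the gene body, 12.5% of genes left and 14.5% entered, and with domains under 50 kb left out 6.39% of starts entered.

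Among the starts that left, 304 (35.9%) lay in gaps of split domains, 222 in trimmed ends, 205 in split ends, 92 (10.9%) in lost domains and 24 in ends of intact domains. Among those that entered, 1032 (66.3%) lay in new domains, 414 in extensions and 110 in bridges. The share that left varied from 8.57% on chromosome 7 to 39.8% on chromosome 15, and the share that entered from 4.70% on chromosome 11 to 18.9% on chromosome 13.

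**Figure D3:**
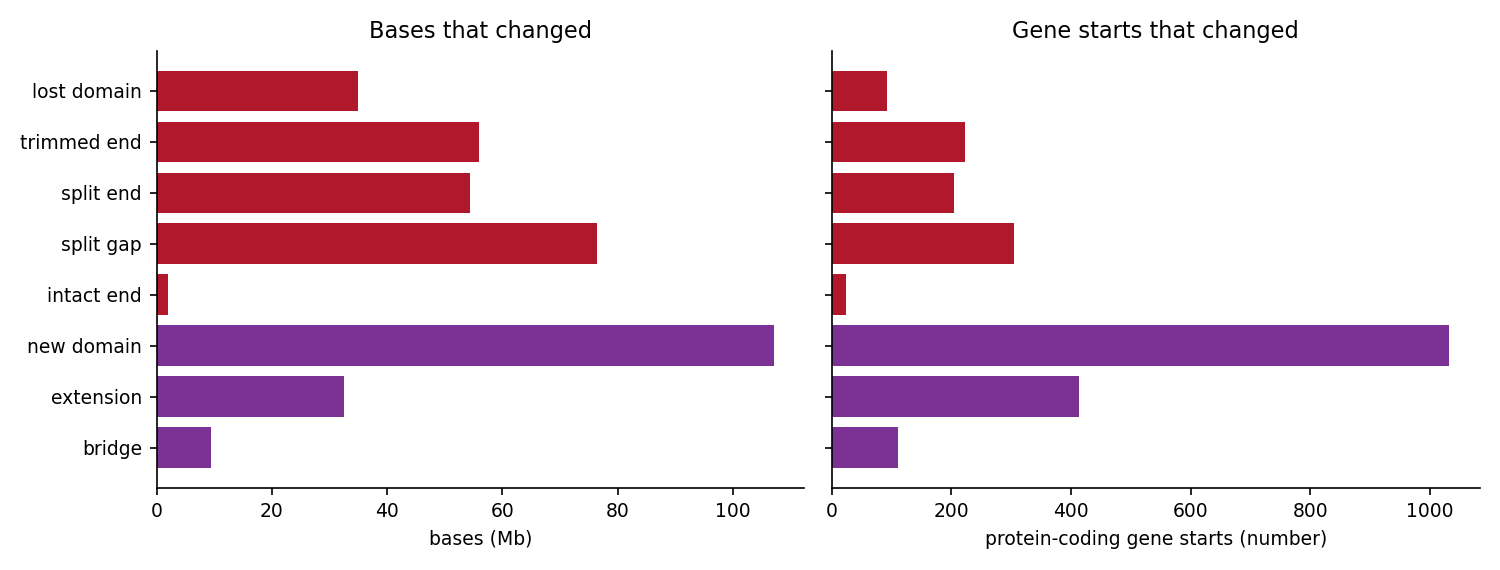
Bars give the bases in Mb (left) and the number of protein-coding gene starts (right) in the 5 kinds of stretch that left domains in dTAG (red) and the 3 kinds that entered (purple). New domains hold 107 Mb and 1032 gene starts, and split gaps hold 76.4 Mb and 304.

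Genes that left were longer and richer in CpG at their start than genes that stayed. The median length was 21.9 kb for genes that left and 8.49 kb for genes that stayed, against 17.6 kb for all protein-coding genes. Of starts in DMSO domains, 11.1% (9.43% to 13.0%) left in genes of up to 5 kb, 22.7% (20.2% to 25.3%) in genes over 20 and up to 100 kb and 39.6% (33.3% to 46.3%) in genes over 300 kb. In the 300 bases around the start, 250 before and 50 after, an observed over expected CpG ratio above 0.6 is a usual limit for a CpG-rich promoter. It was passed by 11.5% of genes that stayed, 21.7% of genes that left, 46.7% of genes that entered and 55.4% of genes outside both sets. The share that left rose from 13.8% where the ratio was at most 0.2 to 31.5% where it was above 0.8. The share that entered moved less, from 13.0% to 8.07% over the same classes. The parts of length and CpG content were not separated. Olfactory and vomeronasal receptor genes, with median lengths of 6.0 and 10.3 kb, supplied 951 and 324 of the genes that stayed. They supplied 58 and 2 of the genes that left. The contrasts were not computed without these families.

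**Figure D4:**
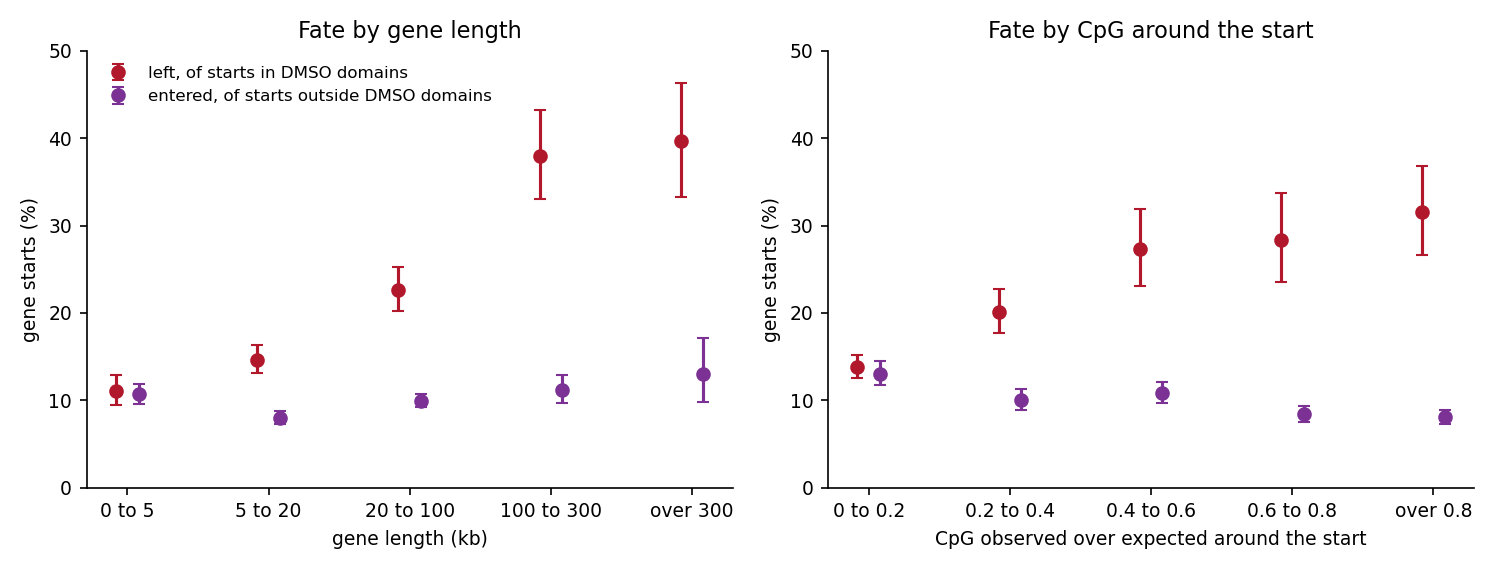
Points give the percent of gene starts that left DMSO domains (red) or entered dTAG domains (purple) by gene length in kb (left) and by the observed over expected CpG ratio around the start (right), with Wilson 95% intervals over genes as bars. The share that left rises from 11.1% in the shortest to 39.6% in the longest genes, and the share that entered stays between 8.02% and 13.1%.

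A start that left did not always take its gene with it. Of the 847 genes, 510 (60.2%) had no base of the gene body in a dTAG domain and 173 (20.4%) kept more than 50% of the body in dTAG domains. Of the 304 starts in split gaps, 65 lay in gaps of up to 10 kb, and for these genes a median of 77.1% of the body stayed in domains.

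The genes of the 2-cell program were considered next. Their clusters largely stayed in domains. All 8 Zscan4 genes, which encode zinc finger proteins of telomere maintenance, and all 7 Obox homeobox genes had their start in an intact domain. All 5 Tdpoz and all 5 Usp17l genes, which encode a family of POZ-domain proteins and a family of deubiquitinases, lay in split domains and stayed inside their pieces. Of 11 Pramel and Pramef genes, 8 were in domains in both sets and Pramef20 entered. Of 5 Tcstv genes, 4 stayed and Tcstv1 entered through a bridge. No member of these 6 groups left a domain, against the background of 18.4%, but they lie in few clusters whose members share a domain. The Zscan4 count includes 3 genes named as pseudogenes that GENCODE lists as protein coding. In the intact domain of the Zscan4 genes 59.9% of the 50-mers were repeated on the chromosome.

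Among 15 genes listed as other 2-cell genes, 2 left, 3 entered, 7 stayed and 3 were outside both sets. The share that left was 22.2%, near the background of 18.4%, and the share that entered was 50%, against 9.6%. Both shares rest on few genes. Duxf3, the annotated gene for DUX, lay in a DMSO domain of 425 kb (chr10:57824924-58249923), of which a dTAG domain covered 5.88%. This was the trimmed domain with the most bases outside dTAG, 400 kb, and the 3 protein-coding starts in it, AW822073, Duxf3 and Gm4981, left. Of its bases 80.8% are N in the assembly and 18.4% of the remaining 50-mers are repeated, so only a small part of this domain can carry reads. Sp110 left with its neighbours, as described below. Zfp42 entered a new domain of 100 kb that covered its whole gene body. It encodes the pluripotency factor REX1 rather than a marker of the 2-cell state, and it is counted again among the zinc finger genes below. Arg2, an arginase gene, entered a new domain of 60 kb and the translation factor gene Eif1a a new domain of 40 kb, which covered 4.88% and 9.88% of the gene bodies. Dppa4, a known activator of the 2-cell program, stayed, in a domain of 2065 kb in DMSO and 1675 kb in dTAG, whereas the start of its partner and neighbour Dppa2 was outside both sets. Zfp352 stayed in an intact domain of 1705 kb.

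The gene clusters that the study named EHMT2 coordinately repressed domains (ECORDs) were placed on the maps as well. Those used here were called by the study from genes higher in DMSO 2CLCs than in DMSO mESCs, not from a response to dTAG. The list came from the study's own RNA-seq of this cell system and is not an independent choice. Of 955 gene symbols in 91 clusters, 828 in 85 clusters matched a GENCODE M21 gene on chromosomes 1 to 19. Their starts were in domains more often than those of genes at large, with 494 of 828 (59.7%) in DMSO domains and 556 (67.1%) in dTAG domains, against 33.6% and 35.4% of all 51229 annotated genes. In all, 58 left, 11.7% of those in DMSO domains, and 120 entered, 35.9% of those outside, against 17.9% and 11.8% of all annotated genes. The changes were concentrated. Of 58 members that left, 36 came from 3 clusters, and of 120 that entered, 66 came from 5 clusters. More members were in dTAG than in DMSO domains in 29 clusters, fewer in 16 and the same number in 40.

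The widest lost domain held a cluster of this kind. It measured 750 kb (chr1:84925096-85675094) and contained the starts of Slc16a14, Gm10553, A530032D15Rik, C130026I21Rik, G530012D18Rik, Sp110, Sp140 and Sp100. SP100, SP110 and SP140 are nuclear body proteins that are induced by interferon. In the ECORD cluster at this place, 20 of 21 members had their start in a DMSO domain and 0 in a dTAG domain. Repeated 50-mers made up 51.0% of the domain, N bases 13.3% and pseudogenes 15 of its 32 annotated starts. The next clusters by members that left were on chromosome 14, with 14 of 22 members in DMSO and 3 in dTAG domains, and around Duxf3 on chromosome 10, with 5 of 7 in DMSO and 0 in dTAG domains.

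The 5 clusters with the most entering members lay on 4 chromosomes. On chromosome 4 all 37 matched members of a cluster, which include Zfp600, Zfp980, Zfp989 and Rex2, entered the widest new domain, 2560 kb (chr4:145319425-147879421). It contained 24 protein-coding starts, most of them of zinc finger genes, and Miip and Fv1, a restriction factor against retroviruses. Of its 50-mers 55.5% were repeated and 16.9% of its bases were N. On chromosome 5, 11 of 11 members entered through a bridge of 820 kb (chr5:14901274-15721272) with Speer4e, Speer4d and Speer4c, of which 48.2% is N. On chromosome 13, 8 of 9 members of a cluster of histone genes entered. On chromosome 11, 5 of 6 entered, among them Slfn2, a member of the schlafen family. On chromosome 5, 5 of 7 entered in a cluster with Tacc3 and Nelfa.

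Zinc finger genes of the Zfp, Zscan and Zkscan type, many of which encode KRAB repressors of transposable elements, entered domains far above the background. Of 409, 74 (18.1%) were in DMSO domains and 171 (41.8%) in dTAG domains. Of the 335 outside DMSO domains 106 (31.6%) entered, against 9.6% of all genes, while 9 of 74 (12.2%) left, against 18.4%. Of the 106, 62 lay in new domains, 35 in extensions and 9 in bridges. They were spread over several clusters, with 29 on chromosome 7, 20 on chromosome 4, 16 on chromosome 17 and 11 on chromosome 13. Zfp809, which silences retroviruses, was among them, as were Zfp112 and Zfp180 on chromosome 7. Zfp708 and Zfp712 on chromosome 13 were among the 9 that left. Most of the entering genes of chromosome 4 lay in the new domain of 2560 kb described above, and neighbours elsewhere often shared a domain. The 106 are therefore not independent.

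Histone genes moved in one direction. None of 75 was in a DMSO domain and 23 (30.7%) were in dTAG domains. Of these, 22 lay in the Hist1 clusters of chromosome 13, which hold replication-dependent histone genes. A new domain of 60 kb (chr13:21782918-21842917) contained 9 of them, from Hist1h3i to Hist1h2br, and a new domain of 115 kb (chr13:23567915-23682914) contained 8, from Hist1h2ae to Hist1h1e. The remaining 5 of chromosome 13, among them Hist1h4i and Hist1h2bk, lay in extensions, and H2afv lay in a new domain on chromosome 11. Repeated 50-mers made up 7.20% of the 60 kb domain and 10.6% of the 115 kb domain. The histone genes of chromosome 3, 11 in number, stayed outside. Within a cluster the genes share domains and are not independent.

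Clustered protocadherin genes, which encode adhesion proteins by which neurons tell themselves apart, entered as well. Of 57 on chromosome 18, 6 were in DMSO domains and 23 in dTAG domains. Of the 51 outside, 17 entered (33.3%), against 9.6% of all genes. Neighbours shared a domain, so the 17 are not independent. A bridge of 80 kb (chr18:36939568-37019567) inside a dTAG domain of 290 kb brought in the starts from Pcdha3 to Pcdha11. Pcdhb4, Pcdhb5 and Pcdhb6 entered a new domain of 30 kb, and Pcdhga1 and Pcdhga2 a new domain of 150 kb. Only 4.32% of the body of Pcdhga1 and 0.355% of that of Pcdhga2 lay in dTAG domains.

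Other neuronal genes moved the opposite way. Of 117 genes of neuronal adhesion and guidance, 45 were in DMSO domains and 34 in dTAG domains, and 18 of the 45 left (40%), against 18.4% of all genes. These genes are long, with a median of 231 kb, and among all genes over 100 and up to 300 kb 38.0% left, so that the share is near that of genes of like length. Of 95 neurotransmitter receptor genes, 11 of 25 in DMSO domains left (44.0%), and of 118 ion channel genes 14 of 24 (58.3%). The median lengths of these lists were 34.8 and 50.4 kb, and 22.7% left among all genes over 20 and up to 100 kb.

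In many of the long genes the start left while the body stayed. Epha6, an ephrin receptor of 952 kb, had 99.5% of its body in DMSO and 99.4% in dTAG domains, yet its start fell into a gap. Grik2, which encodes a kainate receptor subunit, kept 98.0% of its body, and the GABA receptor subunit gene Gabra2 kept 96.6%. The netrin relative Ntng1 kept 97.4% and the cadherin gene Cdh12 93.0%. In these 5 genes at least 93.0% of the body stayed in domains although the start did not.

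In other genes the body lost coverage along with the start, in whole or in part. Tenm2, which encodes a teneurin of synapse formation, had 66.8% of its body in DMSO domains and 5.29% in dTAG domains. Unc5d, a netrin receptor gene, fell from 99.1% to 24.4%, while Erbb4, a neuregulin receptor gene, went from 99.1% to 62.6% and so kept most of its body in domains. Scn9a, a sodium channel gene, and the potassium channel genes Kcna4, Kcna3, Kcnj2 and Kcnj16 had their whole body in a DMSO domain and none of it in a dTAG domain. The potassium channel genes Kcnq3 and Kcnb2 kept 64.9% and 39.0%. Among the 7 genes of the adhesion list that entered, Negr1, Epha7, Sema3c, Cntnap2 and Cdh11 did so through bridges, and the covered share of the body of Epha7 fell from 99.1% to 10.7% although its start entered.

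Several of the widest lost domains lay inside such genes. The second widest, 545 kb (chr11:36684786-37229784), lay wholly within Tenm2, and exons made up 0.143% of it. The next, 455 kb (chr9:28576586-29031585), overlapped Opcml and Ntm, which encode neuronal adhesion proteins, and a lost domain of 320 kb (chr3:25679478-25999476) lay within the neuroligin gene Nlgn1. Lost domains of 290 kb (chr5:13336276-13626275) and 260 kb (chr2:135057798-135317797) overlapped the semaphorin gene Sema3a and lay within the phospholipase gene Plcb1. The lost domain of 265 kb on chromosome 15 (chr15:6303729-6568727) held the starts of C9, a complement component, and Fyb, an adaptor of T cells. That of 260 kb on chromosome 3 (chr3:117574355-117834354) held the start of Plppr5. The lost domains of 365 kb (chr16:23994882-24359880) and 305 kb (chr4:47609555-47914554) lay outside protein-coding genes. Apart from the Sp100 locus, repeated 50-mers made up 1.05% to 5.93% of the 10 widest lost domains.

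Of the 5 trimmed domains with the most bases outside dTAG, the Duxf3 domain was followed by 430 kb on chromosome 2 (chr2:133117801-133547799), 365 kb within the cadherin-related gene Fat3 (chr9:15881603-16246602, 92.2% of it in the gene body), 380 kb on chromosome 10 (chr10:9159989-9539988) and 375 kb within the synaptic scaffold gene Dlg2 (chr7:91604540-91979539). A dTAG domain covered 12.8%, 5.48%, 10.5% and 10.7% of these. No protein-coding gene starts in any of the 4.

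The split domains with the most pieces were gene-poor. A domain of 4350 kb (chr18:25924583-30274576) held 17 dTAG domains that covered 87.8% of it, and its single protein-coding start, Pik3c3, stayed. A domain of 3075 kb (chr7:93039539-96114533) held 16 pieces, with Fam181b, which stayed. A domain of 2820 kb (chr10:112274852-115094847) held 15 pieces and covered the starts of Atxn7l3b and Trhde, which both left. A domain of 2520 kb (chr3:149254313-151774309) held 13 pieces that covered 64.7% of it, and Adgrl4 left while the interferon-induced genes Ifi44 and Ifi44l stayed. A domain of 3600 kb (chr6:73541310-77141304) held 12 pieces, with Gm9008, which stayed, and part of the catenin gene Ctnna2.

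The widest intact domains held sensory receptor clusters or few genes. A dTAG domain covered 100% of each of the 5. The widest, 5685 kb (chr1:98100079-103785070), held the starts of Slco6d1 and Cntnap5b. The next was 5290 kb on chromosome 7 (chr7:7189653-12479645), with 59 protein-coding starts that include Zfp772, Clcn4 and Vmn2r29 to Vmn2r34, and it is the domain of the Zscan4 genes. Of its 50-mers 59.9% were repeated. A domain of 4085 kb (chr7:19994636-24079629) held 103 starts, among them Vmn1r91 and Vmn1r100, and 77.6% of its 50-mers were repeated. A domain of 3050 kb (chr17:17901991-20951986) held 35 starts, with Fpr-rs4 and Vmn2r91 to Vmn2r96, and one of 3030 kb (chr3:10439498-13469493) held Snx16.

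The other named new domains were between 160 and 400 kb wide. That of 400 kb (chr2:151012777-151412776) held Ninl, Nanp, Gm14151 and Gm14147. A domain of 285 kb (chr13:119472788-119757786), of which 35.1% is N, held Tmem267, 3110070M22Rik, Ccl28, Hmgcs1, an enzyme of cholesterol synthesis, and Nim1k. A domain of 220 kb (chr8:34962963-35182962) held the start of Tnks, which encodes tankyrase. That of 180 kb (chr7:3454658-3634657) held Tarm1, Oscar, Ndufa3, Tfpt and Prpf31, that of 175 kb (chr17:6867006-7042004) held Rsph3b, Tagap1, Rnaset2b, Gm49721 and Gm1604a, and that of 165 kb (chr10:29174963-29339961) held Gm49353, 9330159F19Rik and Echdc1. Those of 245 kb (chr5:125951126-126196125) and 160 kb (chr8:68907918-69067917) contained no protein-coding start.

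Receptors of smell and pheromones stayed in domains. Of 1128 olfactory receptor genes 1009 (89.5%) were in DMSO domains, and 58 of these (5.75%) left while 26 entered. Of 327 vomeronasal receptor genes 326 were in DMSO domains and 324 stayed, with Vmn1r216 and Vmn2r117 leaving and Vmn1r4 entering. In the trace amine receptor cluster of chromosome 10, Taar3, Taar4 and Taar5 left through the trimmed end of a domain of 155 kb. Taar6, Taar7a, Taar7b and Taar7d entered a separate new domain of 45 kb, and Taar7e and Taar7f another of 35 kb.

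**Figure D5:**
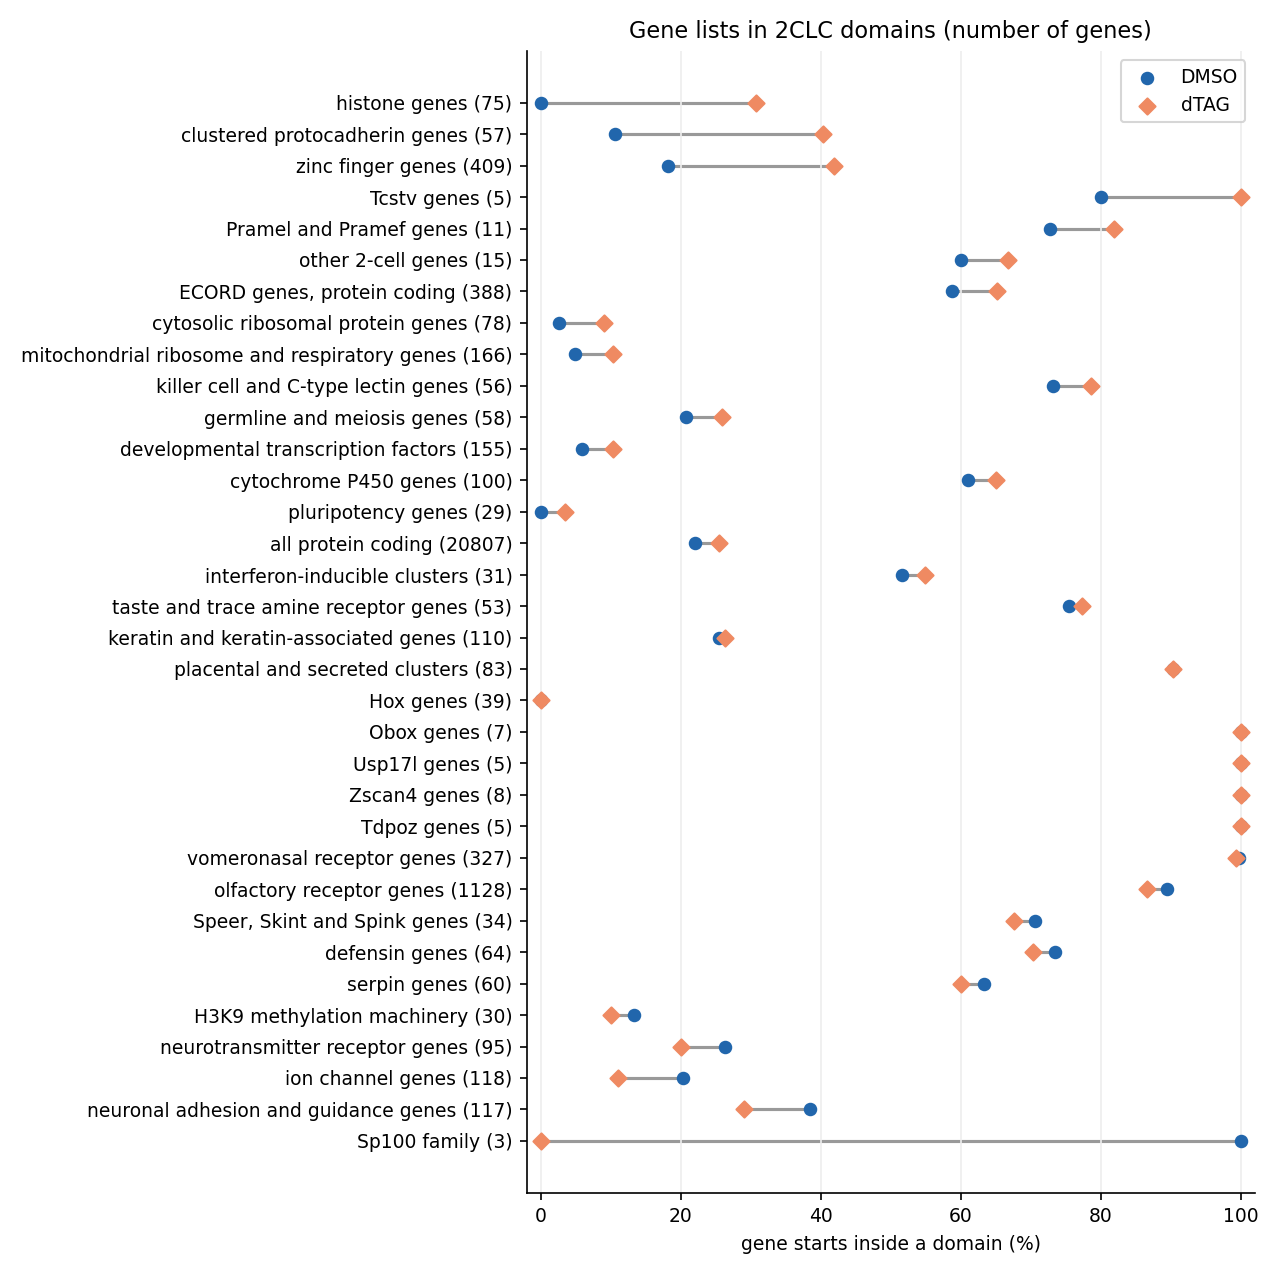
For each gene list, with its number of genes on chromosomes 1 to 19 in brackets, the blue circle gives the percent of gene starts inside a 2CLC DMSO domain and the orange diamond the percent inside a 2CLC dTAG domain, ordered by the difference. Histone, clustered protocadherin and zinc finger genes have the largest gains, and the Sp100 family, neuronal adhesion and ion channel genes the largest drops, against 22.1% and 25.5% for all protein-coding genes.

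Other tandem clusters are set against backgrounds of 18.4% of starts that left and 9.6% that entered. In the placental and secreted clusters, which hold prolactin-like and pregnancy-specific genes, 74 of 75 starts in DMSO domains stayed, and Psg16 left. Of 61 cytochrome P450 genes in DMSO domains 58 stayed, of 47 defensin genes 45, and of 28 keratin and keratin-associated genes 25. Of 38 serpin genes, which encode protease inhibitors, 7 left (18.4%), the same share as the background. Of these, 4, Serpina5, Serpina3a, Serpina3b and Serpina3c, lay in a lost domain of 110 kb. Among killer cell and C-type lectin receptor genes 5 of 41 left and 8 of 15 outside entered (53.3%), against the background of 9.6%. Of 24 Speer, Skint and Spink genes in DMSO domains 5 left (20.8%), near the background. All of these were Spink genes of chromosome 18, and 4 of 10 outside entered. In the interferon-inducible clusters 2 of 16 left, Gbp3 and Gbp2b, and 3 of 15 outside entered, Slfn1, Slfn2 and Gbp10.

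Genes of development and pluripotency were mostly outside domains in both sets. None of 39 Hox genes was in a domain in either set. Of 155 developmental transcription factor genes 9 were in DMSO domains, and 5 of these left (55.6%). The background is 18.4%, and the share rests on few genes. Sox11, a factor of neural progenitors, had its start in a lost domain of 45 kb that covered 5.81% of its body. The pituitary factor gene Pou1f1 lay in a lost domain of 145 kb and the neuronal factor gene Neurod6 in a lost domain of 75 kb, while Foxq1 lay in a trimmed end. Of the 146 outside, 12 entered (8.22%), near the background of 9.6%, among them Lhx4, Lhx8, Nkx6-1 and Sox14 in new domains. Of 29 pluripotency genes Fgf5, a marker of the primed epiblast, entered a new domain of 70 kb, and the other 28 stayed outside. Zfp42, described above with the 2-cell genes, is also a pluripotency gene but is not on this list. Of 58 germline and meiosis genes Syce1 left and Sycp1, Rnf212, Tex101 and Zp2 entered. These were 8.33% of those in DMSO domains and 8.70% of those outside, against 18.4% and 9.6% of all genes.

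Most genes that place, read or remove H3K9 methylation were outside the domains. Of 30, 25 had their start outside both sets, among them Ehmt2, Ehmt1, Setdb1 and Trim28. Atf7ip and Atf7ip2 stayed in intact domains. Cdyl, which encodes a reader of the mark, and the demethylase gene Kdm4c left, and the demethylase gene Kdm4a entered a new domain of 30 kb. Kdm4c left at the end of an intact domain, and the covered share of its body went the other way, from 5.12% in DMSO to 31.4% in dTAG. Among housekeeping genes, 5 of 76 cytosolic ribosomal protein genes outside DMSO domains entered (6.58%), all in extensions. Of the genes of the mitochondrial ribosome and respiratory chain 11 of those outside entered (6.96%), among them Mrpl15 and Ndufa3 in new domains. Both shares lie near the background of 9.6% and rest on few starts, so no difference is read from them.

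Across kinds of annotated genes, long noncoding and antisense genes left more often than protein-coding genes and duplicated pseudogenes less often. Of lincRNA starts in DMSO domains 26.4% left, of antisense starts 39.0%, of processed pseudogenes 13.4% and of unprocessed pseudogenes 8.53%, against 18.4% of protein-coding starts. The protein-coding share includes 1009 olfactory and 326 vomeronasal receptor starts among 4593, of which 5.75% and 0.613% left. The contrast was not computed without these families. Unprocessed pseudogenes, most of which lie beside the cluster they came from, were in domains at 79.9% in DMSO and 80.4% in dTAG. The immunoglobulin and T cell receptor segments were in domains at 71.1% and 74.6%.

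A few places carried many of the changed starts. Of the 847 starts that left, 105 were on chromosome 14, where 278 lay in DMSO domains. A split gap of 1780 kb (chr14:41326092-43106089) held 37 of them, a split end of 740 kb (chr14:7001138-7741136) held 15 and a split gap of 520 kb (chr14:5956140-6476138) held 13. Most of these starts are of predicted genes with Gm symbols, and repeated 50-mers made up 87.6%, 82.7% and 81.6% of these stretches. Without chromosome 14, 742 of 4315 starts left (17.2%), and the share that entered was 9.53%. On chromosome 4 a new domain of 80 kb (chr4:88709500-88789499) brought in 10 starts, among them Klhl9 and the interferon gene Ifnz, and 38.5% of its 50-mers were repeated. The stretches named in this paragraph were picked after their counts had been seen.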

How the data were processed

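H3K9me2 was profiled by native ChIP-seq for low cell numbers in sorted 2CLCs, with 3 immunoprecipitation and 3 input libraries for each of DMSO and dTAG at 72 h. Per the study's methods and the submitters' processing notes, the authors aligned reads to mm10 with STAR 2.7.10, keeping reads with several matches, and removed duplicates with Picard 2.26.0 and reads in blacklisted regions. SAMtools 1.14, bedtools 2.30.0, deepTools 3.5.1 and R 4.1.2 are also named. The authors took windows that overlap along a grid of 5 kb and computed for each the log2 ratio of ChIP to input. They grew domains from bins above a high percentile until the signal fell below a low one, so a domain marks rank within its own set and is not a level of the mark. Whether replicates were pooled is not given in the sources used here. The deposited score column is 0 throughout, and only the positions were used. The 3 other domain lists of the series were not used here.

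The domains of the 2 sets on chromosomes 1 to 19 were intersected with Python 3.11.15, numpy 2.4.6 and pandas 2.3.3. Starts of genes were taken from GENCODE M21 and sequence from GRCm38.p6, which has the coordinates of mm10. The 300 bases around the start were read for 99.98% of protein-coding genes. The scripts were tested on simulated data. Regions were named by rule: the 10 widest lost and new domains, and the 5 split domains with the most pieces, the 5 widest intact domains and the 5 trimmed domains with the most bases outside dTAG. Of these, 1 new domain is not reported here, nor are some members of the lists. Genes were named from lists of gene families and functions, and the ECORD symbols came from the study's supplement. The members and lists were chosen with earlier results of these data known. With 1 list per condition no test was possible, and intervals and shares are descriptions. Other coverage limits, overlaps, widths, bridged gaps and gene sets were tried, and the omission of chromosome 14 was chosen after seeing the data.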

Additional observations from a re-analysis of the deposited data

How the results depend on the processing

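Of 46 alternative values, 23 moved beyond the Wilson interval of the main share and 23 did not. With under 50% of shared bases counted as none, 25.7% of DMSO domains were lost, 16.5% trimmed and 31.2% split, and 34.4% of dTAG domains were new. With domains of at least 50 kb only, 21.0% were lost, 31.9% split and 21.4% intact, 17.1% were new, and 20.3% of gene starts left and 6.39% entered. With gaps of up to 10 kb bridged, 28.96% were trimmed, 28.9% split and 31.4% intact, and 39.3% were new. With intact set from 80% of bases, 21.1% were trimmed and 32.1% intact, and from 100%, 32.02% and 21.2%. With the X chromosome, 30.9% were new. Over any base of the gene body, 12.5% of genes left and 14.5% entered, and of all annotated genes 11.8% entered. Without chromosome 14, a choice made after seeing the data, 17.2% left. Splitting was not the most common class when gaps of up to 10 kb were bridged. No paired analysis was possible because each condition is 1 list with no values per sample. For the same reason replicates could not be left out, and a stricter threshold could not be applied without scores.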

Other observations

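Some members of tandem gene families left or entered domains. The bitter taste receptor genes Tas2r143 and Tas2r135 left through the trimmed end of a domain of 115 kb on chromosome 6. The keratin-associated genes Krtap4-9, Krtap4-16 and Krtap9-1 left through trimmed ends on chromosome 11, and Krtap28-10, Krtap28-13, Krtap5-3 and Krtap5-5 entered new domains of 80 and 50 kb. Of the cytochrome P450 genes, Cyp2e1 left with its whole body, together with its neighbour Syce1 in the same split end of a domain of 590 kb, and Cyp2b13 and Cyp11b1 left as well.

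Of small noncoding genes in DMSO domains, 19.8% of 495 miRNA starts, 16.7% of 520 snRNA starts and 11.3% of 688 snoRNA starts left. Of those outside, 6.99%, 12.7% and 9.02% entered.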
